A study of Mus musculus with 12 samples.

Results

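Endothelial cells and pericytes form the wall of brain capillaries, and 36 genes that mark them were followed across 12 expression arrays of mouse prefrontal cortex and hippocampus. Of the 36, 34 had a probe set annotated to that gene alone, and Ly6a and Ly6c1 had none. The 34 genes were read by 58 of the 45037 probe sets tested, and they are 34 of the 18193 genes with such a probe set. For counts and averages each gene was taken at its brightest probe set, the one with the highest mean over the 12 arrays.

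The arrays came from female mice on a C57BL/6 background, aged 38 to 40 weeks, after 6 generations of back-crossing. APLP2-KO mice (APLP2-/-) have no APLP2, a protein of the APP family, and keep App itself. APPsα-DM mice (APPα/αAPLP2-/-) have no APLP2 either, and both of their App alleles are changed so that, as the model is generally described, APPsα, the shed outer part of APP, is all that is made. Both genotypes therefore share the loss of APLP2, and no wild type was analysed here. Prefrontal cortex and hippocampus of each genotype were measured on 3 arrays each, from 3 mice of a genotype according to the design text. All values are deposited RMA signals on a log2 scale, so that a difference of 1 is a doubling. A gene was called where limma's p, adjusted over all 45037 probe sets by Benjamini-Hochberg, was under 0.05. The labels do not say which cortex and hippocampus came from the same mouse.

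In the brain, endothelial cells are sealed to each other by tight and adherens junctions and carry nutrient and efflux transporters, which together make the blood-brain barrier. Vascular growth factors and angiopoietins act on them through receptor tyrosine kinases, and transcription factors of the ETS and SOX families maintain their identity. Pericytes sit on the outside of the capillary under the same basement membrane and are recruited through the platelet-derived growth factor receptor beta.

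App served as the check of the genotype labels: over both tissues App probe set 1 read 12.49 to 12.77 in the APLP2-KO arrays and 7.70 to 8.20 in the APPsα-DM arrays. App probe set 2, the brightest, differed less and read 13.38 to 13.50 against 11.46 to 11.83. App probe sets 3 and 4 were dim, with means of 2.63 and 2.94 over the 12 arrays. The position of these App probes within the changed allele was not examined. As a check of tissue, Prox1, which marks dentate granule neurons, read 5.20 to 5.72 in cortex and 6.60 to 6.99 in hippocampus. The mean of 10 neuronal genes lay between 11.58 and 11.92 on every array. Within a group, pairs of arrays had Pearson's r between 0.9947 and 0.9972. Some arrays stood apart in tissue that borders the ventricles and the brain surface: the mean of 13 choroid plexus genes ran from 4.91 to 8.45, and was high in APLP2-KO cortex 3 (7.02) and APPsα-DM cortex 2 (7.43) among the cortex arrays. The mean of 12 genes of leptomeninges and fibroblasts was 9.27 in APPsα-DM hippocampus 1 against 7.90 to 8.39 on the other 11 arrays.

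The brightest probe sets of the 34 genes had mean signals over the 12 arrays between 5.03 and 11.13, none below 5. In hippocampus, 31 of the 34 endothelial and pericyte genes had a higher mean in APPsα-DM than in APLP2-KO, with a median difference of 0.18, and no single difference passed the threshold. Over all 18193 genes 54.2% of the differences were above 0, with a median of 0.01, and over the genes with a mean signal of at least 5 the share was 59.0%. Limma called 0 of the 34, where 0.011% of all genes were called, and 13 of the 34 had an unadjusted p under 0.05, against 4.02% of all genes. Of these 13, 12 were higher in APPsα-DM, against 2.04% of all genes. In 13 of the 34 every APPsα-DM hippocampus array lay above every APLP2-KO hippocampus array, against 5.13% of all genes, and in 1 every array lay below (5.34% of all genes). The members were chosen with earlier results of these data known, and many had their highest value on the same array. These shares, here and in the other comparisons, are therefore descriptions and not tests of the list. In tissue RNA, more cells of a type and more RNA per cell cannot be told apart.

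Clec14a, which encodes a C-type lectin on endothelial cells, had the smallest p of the 34 in hippocampus. Its brighter probe set read 5.75, 5.64 and 5.61 in APLP2-KO hippocampus 1, 2 and 3 and 6.14, 5.90 and 6.07 in APPsα-DM hippocampus 1, 2 and 3. The groups did not overlap, and the difference of 0.37 ± 0.08 (SE), or 1.29-fold, had an adjusted p = 0.711. Clec14a has a dimmer probe set too, with a mean signal of 4.05 over the 12 arrays, which is below 5. That probe set read 4.08, 3.72 and 3.60 against 4.33, 4.31 and 4.32, without overlap and with a difference of 0.52 ± 0.10 (adjusted p = 0.650).

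Emcn encodes endomucin, a sialoglycoprotein of the endothelial surface, and was the next in line. Its signal was 7.03, 7.18 and 7.03 in the APLP2-KO hippocampi and 7.66, 7.43 and 7.36 in the APPsα-DM hippocampi. All 3 APPsα-DM arrays were above the APLP2-KO arrays, by 0.40 ± 0.10 on average, or 1.32-fold (adjusted p = 0.9998). Ptprb, the endothelial receptor tyrosine phosphatase VE-PTP, read 8.36, 8.32 and 8.32 against 8.67, 8.60 and 8.42. The groups did not overlap either, at a difference of 0.23 ± 0.08, and the APLP2-KO arrays were close to each other. The other surface and secreted proteins, Itm2a, Egfl7, Eng, Robo4 and Vwf, differed by 0.04 to 0.29, so that all 8 measured members of this group lay above 0.

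Among the growth factor receptors, Kdr is the main receptor of vascular endothelial growth factor on endothelial cells. Its hippocampal signal was 7.06, 7.03 and 6.78 in APLP2-KO and 7.29, 7.50 and 7.30 in APPsα-DM. The lowest APPsα-DM array was above the highest APLP2-KO array, and the difference was 0.41 ± 0.13, or 1.33-fold (adjusted p = 0.9998). Flt1, which binds the same growth factor and restrains its action, read 8.44, 8.37 and 8.49 against 8.68, 8.81 and 8.62, a difference of 0.27 ± 0.10 without overlap, which was 0.14 with its 4 probe sets averaged. Tie1, the partner of the angiopoietin receptor Tek, read 5.08, 5.20 and 5.31 against 5.85, 5.78 and 5.29. Here APPsα-DM hippocampus 3 lay inside the APLP2-KO range, and the Tie1 difference was 0.44 ± 0.14, from 0.34 without APPsα-DM hippocampus 1 to 0.62 without APPsα-DM hippocampus 3. Tek itself differed by 0.18 ± 0.12 and Flt4, the receptor of lymphatic growth factors, by 0.09 ± 0.07. Of the 3 dimmer Flt1 probe sets, 2 lay above 0 and 1 below.

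The junction and adhesion genes lay above 0 in 5 of 5 cases. Pecam1, an adhesion molecule of endothelial contacts, read 5.92, 5.86 and 5.96 in APLP2-KO hippocampus and 6.28, 6.10 and 6.21 in APPsα-DM hippocampus. Its groups were apart, with a difference of 0.28 ± 0.09 or 1.21-fold. Cdh5, the cadherin of endothelial adherens junctions, read 5.47, 5.58 and 5.27 against 5.95, 5.73 and 5.55, so that APPsα-DM hippocampus 3 fell just inside the APLP2-KO range, and differed by 0.30 ± 0.12. Cldn5, the main claudin of the barrier's tight junctions, varied more between arrays: it read 9.50, 9.41 and 8.87 against 9.62, 9.79 and 9.46, and differed by 0.36 ± 0.21. Esam and Icam2, both adhesion molecules, differed by 0.16 ± 0.09 and 0.10 ± 0.12.

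The 6 transporters of the blood-brain barrier lay between -0.10 and 0.19. Slco1a4, which carries organic anions, read 9.46, 9.56 and 9.63 in APLP2-KO hippocampus and 9.76, 9.73 and 9.73 in APPsα-DM hippocampus, without overlap and with a difference of 0.19 ± 0.08. Abcb1a, the efflux pump P-glycoprotein, differed by 0.16 ± 0.10 and the thyroid hormone carrier Slco1c1 by 0.13 ± 0.12. The glucose transporter gene Slc2a1 differed by 0.09 ± 0.09, the lipid transporter gene Mfsd2a by 0.03 ± 0.13 and the amino acid transporter gene Slc7a5 by -0.10 ± 0.13. Of the 6, only Slco1a4 separated the genotypes.

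Of the transcription factors, Sox18 read 7.48, 7.60 and 7.65 in APLP2-KO hippocampus and 7.81, 7.77 and 7.73 in APPsα-DM hippocampus. The Sox18 groups did not overlap, at a difference of 0.19 ± 0.07 or 1.14-fold. Sox17 differed by 0.24 ± 0.14 and the ETS factor Erg by 0.08 ± 0.14. The dimmer Erg probe set lay the other way, at -0.20 ± 0.15, without overlap. Nos3, the endothelial nitric oxide synthase, read 7.01, 6.97 and 6.82 against 7.26, 7.12 and 7.02, a difference of 0.20 ± 0.08 with no overlap. S1pr1, a receptor of sphingosine phosphate that astrocytes and neurons express as well, differed in the other direction: it read 9.63, 9.61 and 9.58 in APLP2-KO hippocampus and 9.49, 9.40 and 9.49 in APPsα-DM hippocampus. That difference was -0.15 ± 0.06, the lowest of the 34, and the groups did not overlap. Ramp2, which pairs with the receptor of the vasodilator adrenomedullin, differed by -0.04 ± 0.11.

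The 4 pericyte genes lay above 0 by 0.01 to 0.18. Rgs5, a regulator of G-protein signalling abundant in pericytes, read 10.58, 10.64 and 10.73 in APLP2-KO hippocampus and 10.83, 10.84 and 10.81 in APPsα-DM hippocampus, apart by 0.17 ± 0.07. Of its 3 dimmer probe sets 2 lay above 0, at 0.12 each, and 1 at -0.02. Pdgfrb, the receptor that recruits pericytes, differed by 0.18 ± 0.14, and the potassium channel subunit gene Abcc9 and the peptidase gene Anpep by 0.02 ± 0.10 and 0.01 ± 0.09. The dimmer Abcc9 probe sets lay at -0.15 ± 0.16, without overlap, and at 0.01 ± 0.07. Over all 58 probe sets of the 34 genes, 50 lay above 0 in hippocampus, and among the 24 that are not the brightest of their gene 19 did.

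**Figure D1:**
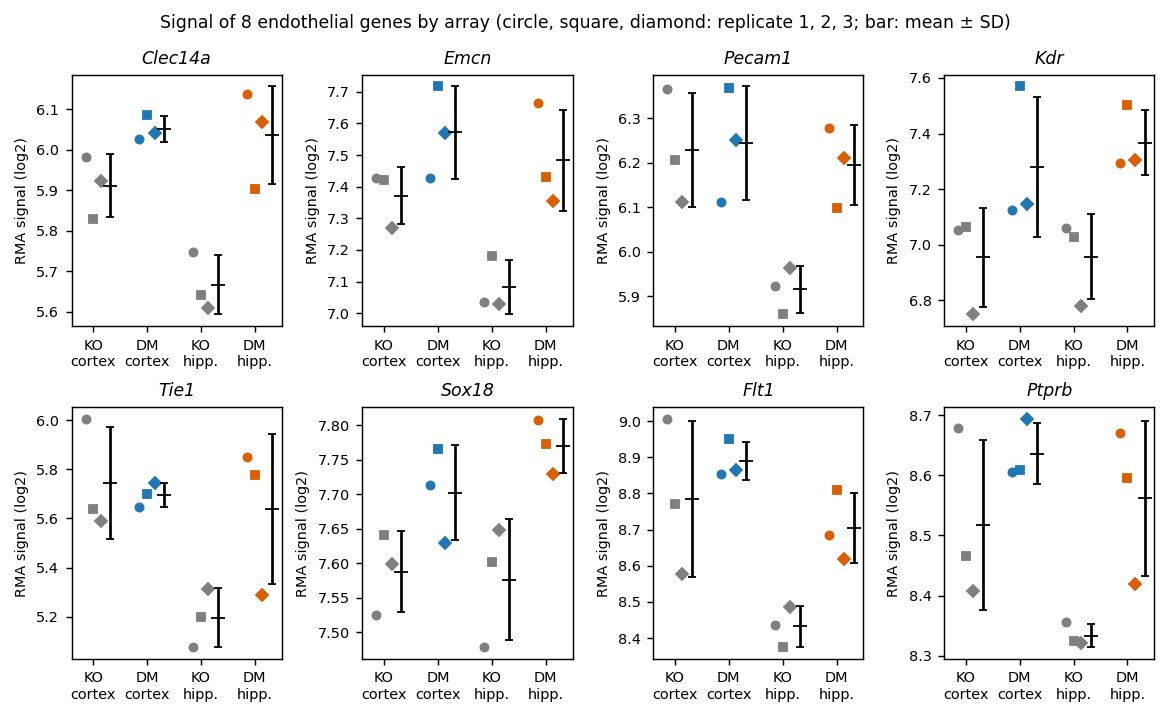
RMA signal on a log2 scale (vertical axes, each gene on its own range that does not start at 0) of the 8 members with the smallest p in the hippocampal genotype comparison, by group: KO is APLP2-KO, DM is APPsα-DM, hipp. is hippocampus. Each marker is 1 array, and the bar beside a group is its mean ± SD (n = 3). For Kdr the APPsα-DM hippocampus arrays lie between 7.29 and 7.50, all above the APLP2-KO hippocampus arrays, and for Tie1 1 of them, at 5.29, lies among the APLP2-KO arrays.

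Promoters are shown for the 4 genes with the smallest hippocampal p that have a single promoter in the table used, because these genes lay higher together in APPsα-DM. The sequences are the 250 bases before the RefSeq start of Clec14a, Emcn, Kdr and Tie1 in GRCm38.p6, written 5′ to 3′ on the gene's strand. A promoter was listed for 21 of the 34 genes. Capitals mark matches, on either strand, to AGGAAG, the core of ETS family sites, to AACAGGAA, a composite of FOX and ETS half-sites, and to AACAAT, a SOX site. TATAAA was searched too.
Clec14a, chr12:58269259-58269508, - strand: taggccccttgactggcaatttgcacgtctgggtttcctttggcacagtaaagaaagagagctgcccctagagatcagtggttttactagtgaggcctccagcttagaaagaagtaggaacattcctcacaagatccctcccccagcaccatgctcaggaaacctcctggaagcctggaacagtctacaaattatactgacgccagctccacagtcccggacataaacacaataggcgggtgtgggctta
Emcn, chr3:137340828-137341077, + strand: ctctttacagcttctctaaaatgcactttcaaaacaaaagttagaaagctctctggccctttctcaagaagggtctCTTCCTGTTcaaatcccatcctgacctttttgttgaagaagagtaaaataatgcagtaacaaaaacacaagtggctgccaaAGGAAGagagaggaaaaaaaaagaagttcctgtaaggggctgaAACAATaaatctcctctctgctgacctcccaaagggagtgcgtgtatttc
Kdr, chr5:75978456-75978705, - strand: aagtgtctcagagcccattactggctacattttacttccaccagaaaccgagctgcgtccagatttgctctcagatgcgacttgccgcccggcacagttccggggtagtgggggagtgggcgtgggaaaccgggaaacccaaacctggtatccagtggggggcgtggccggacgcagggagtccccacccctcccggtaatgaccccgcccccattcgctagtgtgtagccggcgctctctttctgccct
Tie1, chr4:118489850-118490099, - strand: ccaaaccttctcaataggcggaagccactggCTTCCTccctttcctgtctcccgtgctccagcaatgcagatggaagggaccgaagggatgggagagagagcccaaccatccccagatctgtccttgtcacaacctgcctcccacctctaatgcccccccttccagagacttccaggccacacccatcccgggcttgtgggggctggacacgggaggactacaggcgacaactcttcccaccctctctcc

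In Emcn the capitals are an ETS core at positions -174 to -169 before the start, which overlaps a FOX and ETS composite at -173 to -166, an ETS core at -93 to -88 and a SOX match at -50 to -45. In Tie1 they are an ETS core at -219 to -214. Clec14a and Kdr held none of these letters in this window. Among the 25 promoters of the 21 genes, 12 (48.0%) held AGGAAG, against 29.5% of all 32851 promoters of the same length. AACAGGAA stood in 2 of the 25 (8.0%, against 2.25%), AACAAT in 4 (16.0%, against 9.42%) and TATAAA in 2 (8.0%, against 12.4%). These matches describe the letters of the window only.

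The high hippocampal values were spread unevenly over the APPsα-DM arrays. Of the 34 members, 19 had their highest value of the 6 hippocampus arrays in APPsα-DM hippocampus 1, 7 in APPsα-DM hippocampus 2 and 3 in APPsα-DM hippocampus 3. Over all genes those arrays were the highest in 19.5%, 23.4% and 10.1% of cases. The lowest value lay in APLP2-KO hippocampus 1 for 11 members (17.8% of all genes) and in APLP2-KO hippocampus 3 for 15 (23.6%), and in no member in APPsα-DM hippocampus 1 (17.7%).

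APPsα-DM hippocampus 1 was also the array with the most signal of other vascular and ventricular tissue. The mean of the 34 members was 7.64, 7.67 and 7.64 in APLP2-KO hippocampus 1, 2 and 3 and 7.90, 7.80 and 7.74 in APPsα-DM hippocampus 1, 2 and 3. The mean of the 13 choroid plexus genes on the same arrays was 5.58, 6.32 and 7.38 against 8.45, 5.75 and 8.02. All 3 APPsα-DM arrays were above the 3 APLP2-KO arrays in the members' mean, and the choroid plexus means overlapped between the genotypes. The mean of the 12 leptomeningeal and fibroblast genes was 8.39, 8.20 and 7.97 against 9.27, 8.02 and 7.96, and that of 9 smooth muscle genes 7.02, 6.87 and 6.90 against 7.41, 7.01 and 6.95. Over the 12 arrays Ttr, the carrier protein that choroid plexus secretes, read 8.20 to 14.36, and the choroid plexus transcription factor gene Otx2 read 3.09 to 7.40, its lower end among the dim signals. Acta2, the smooth muscle actin, read 8.69 to 10.00.

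**Figure D2:**
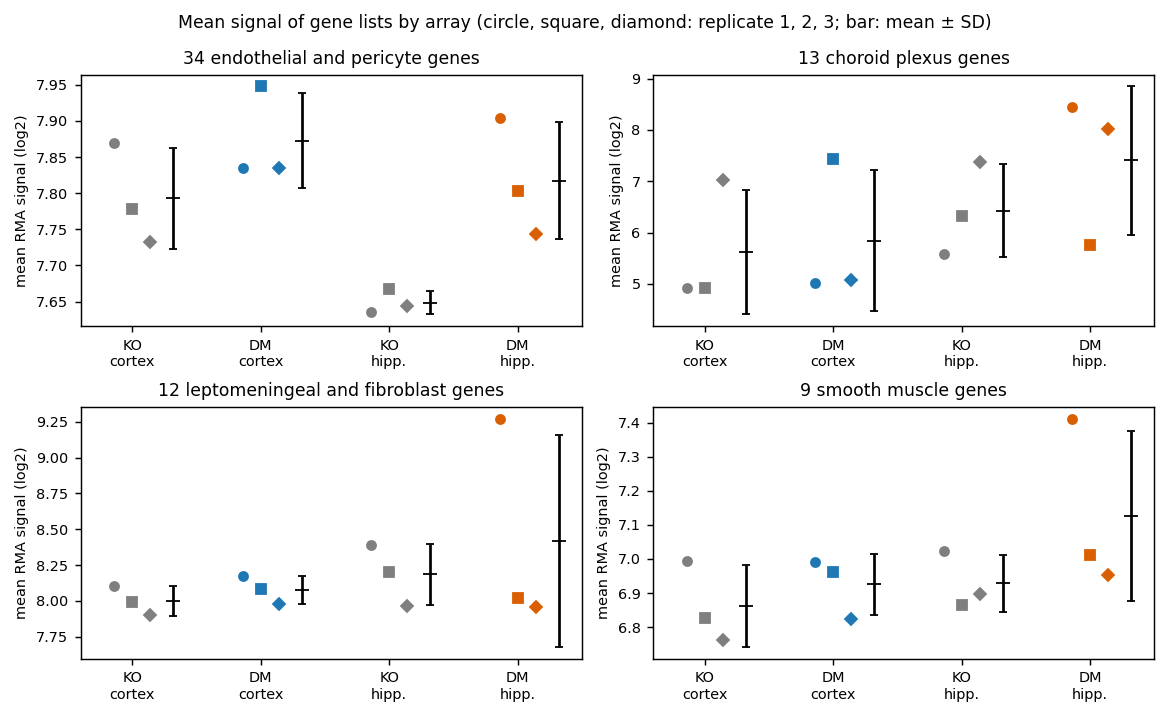
Mean RMA signal on a log2 scale (vertical axes, not starting at 0) of 4 gene lists on each array, by group (KO, APLP2-KO; DM, APPsα-DM; hipp., hippocampus). Markers are single arrays and bars the mean ± SD (n = 3). The 3 APPsα-DM hippocampi lie at 7.74 to 7.90 for the endothelial and pericyte genes, above the APLP2-KO hippocampi, while for the leptomeningeal genes 1 of them stands alone at 9.27.

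Without APPsα-DM hippocampus 1, 28 of the 34 differences were above 0 with a median of 0.11, where 53.1% of all genes were above 0. Kdr was then at 0.45, Clec14a at 0.32, Emcn at 0.31 and Pecam1 at 0.24. With the choroid plexus mean as a covariate 29 of 34 were above 0 (median 0.15), where 54.4% of all genes were. With the leptomeningeal mean, an alternative chosen after seeing the data, 30 of 34 were (median 0.13), against 53.5% of all genes. Other pericyte genes outside the 34 lay above 0 in 8 of 12 cases with a median of 0.10, and 0 of the 12 had an unadjusted p under 0.05 in limma.

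In prefrontal cortex, 29 of the 34 genes lay above 0, where 50.6% of all genes did, with a median of 0.06 against 0.00 for all genes. Limma called 0 of 34 (0.011% of all genes were called), and 3 had an unadjusted p under 0.05, all higher in APPsα-DM, against 4.57% of all genes in either direction and 2.07% higher. In 4 of 34, namely Slco1a4, Kdr, Clec14a and Itm2a, every APPsα-DM cortex array lay above every APLP2-KO cortex array, against 4.25% of all genes, and in none did every array lie below (5.56% of all genes). Of the 24 dimmer probe sets 10 lay above 0.

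Itm2a, an integral membrane protein gene that is bright in brain endothelium, had the smallest p of the 34 in cortex. It read 11.06, 10.92 and 11.10 in APLP2-KO cortex 1, 2 and 3 and 11.22, 11.52 and 11.29 in APPsα-DM cortex 1, 2 and 3. The groups were apart by 0.32 ± 0.10 or 1.25-fold (adjusted p = 0.9996), and the dimmer Itm2a probe set also differed, by 0.26 ± 0.10. Slco1a4 read 9.62, 9.61 and 9.71 against 9.77, 9.99 and 9.78, apart by 0.20 ± 0.08, a size like that in hippocampus. Kdr read 7.05, 7.06 and 6.75 against 7.13, 7.57 and 7.15, a difference of 0.33 ± 0.13 in which APPsα-DM cortex 2 was far above the rest.

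Sox17, which acts in arterial endothelium, read 6.99, 7.33 and 7.43 in APLP2-KO cortex and 7.59, 7.67 and 7.37 in APPsα-DM cortex, overlapping, with a difference of 0.29 ± 0.14. Emcn read 7.43, 7.42 and 7.27 against 7.43, 7.72 and 7.57 and differed by 0.20 ± 0.10. Clec14a read 5.98, 5.83 and 5.92 against 6.03, 6.09 and 6.04, narrowly apart by 0.14 ± 0.08, and its dimmer probe set lay at -0.10 ± 0.10. Sox18 read 7.52, 7.64 and 7.60 against 7.71, 7.76 and 7.63 and differed by 0.11 ± 0.07, with overlap. In cortex these genes thus separated the genotypes at most narrowly. Abcc9, at 7.37, 7.09 and 6.99 against 7.08, 6.95 and 6.94, differed by -0.16 ± 0.10, also with overlap. The other members below 0 in cortex were Slc7a5, S1pr1, Tie1 and Ramp2, at -0.13 to -0.04.

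APPsα-DM cortex 2 held the highest of the 6 cortex values for 21 of 34 members (23.7% of all genes), and APLP2-KO cortex 3 the lowest for 15 of 34 (12.7% of all genes). These 2 arrays had the highest Ttr of the cortex arrays, at 14.18 and 14.03 against 8.20 to 9.42 on the other cortex arrays. Without both, 16 of 34 differences were above 0 with a median of -0.01, where 48.5% of all genes were above 0, and Kdr was at 0.08 and Emcn at 0.07. Itm2a was then at 0.27, Slco1a4 at 0.16 and Sox17 at 0.32. Without APPsα-DM cortex 2 alone 20 of 34 lay above 0 (47.2% of all genes), and without APLP2-KO cortex 3 alone 23 of 34 (51.4%). With all 12 arrays and the choroid plexus mean as a covariate, 28 of 34 lay above 0 with a median of 0.06 (50.6% of all genes). With the leptomeningeal mean 28 of 34 did (50.5% of all genes). What sets these 2 arrays apart in the members was not tested.

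**Figure D3:**
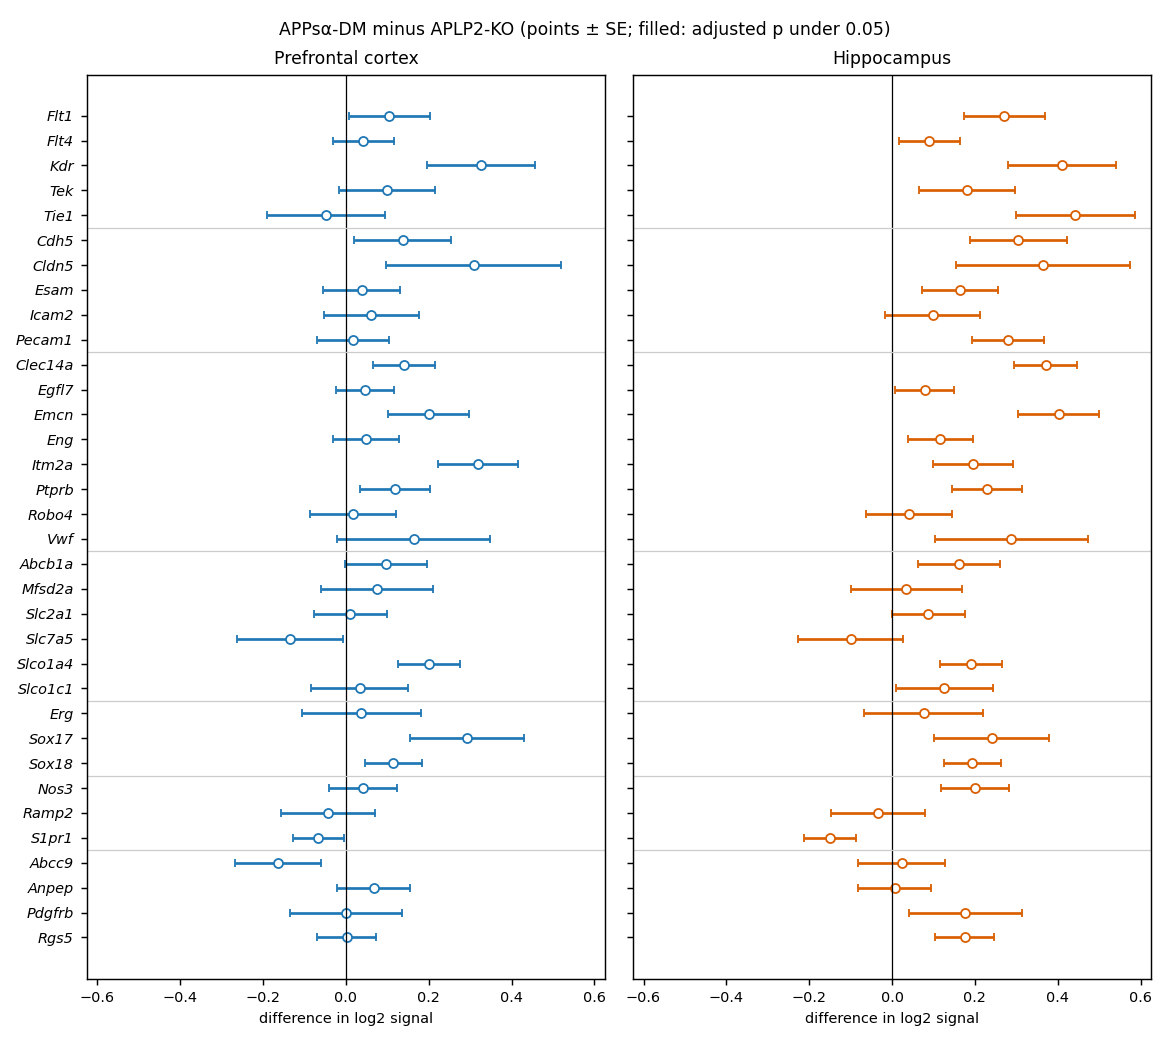
Difference in log2 RMA signal, APPsα-DM minus APLP2-KO (horizontal axes), for the 34 genes in cortex (left) and hippocampus (right), grouped by role. Points are limma estimates with SE bars, 3 arrays a group, and all are open because none passed the threshold. In hippocampus 31 of 34 points lie right of 0, up to 0.44, and in cortex 29 of 34.

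Averaged over both tissues, with 3 values per genotype, 30 of 34 genes lay above 0 (52% of all genes), with a median of 0.11. Limma called 0 (0.011% of all genes), and 11 had an unadjusted p under 0.05, against 4.2% of all genes. All 11 were higher, against 2.32% of all genes. Emcn differed by 0.30 ± 0.06, Itm2a by 0.26 ± 0.06, Clec14a by 0.26 ± 0.06 and Kdr by 0.37 ± 0.11, or 1.29-fold, all with adjusted p = 0.9999. Slco1a4 was at 0.20 ± 0.06, Cdh5 at 0.22 ± 0.08, Flt1 at 0.19 ± 0.07 and Ptprb at 0.17 ± 0.06. The genotype averages did not overlap for 10 members that were higher, against 5.47% of all genes, nor for S1pr1, which was lower (4.84% of all genes). Each average joined the cortex and hippocampus arrays of the same replicate number. The labels do not say that these came from the same mouse, so the pairing is an assumption in both genotypes. The differences do not depend on this pairing, but the SEs, the p values and the counts without overlap do.

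Whether the genotype difference was larger in hippocampus than in cortex was tested as a difference of differences. Limma called 0 of 34 (0% of all genes), and 1, Tie1, had an unadjusted p under 0.05, against 3.41% of all genes in either direction and 1.53% above 0. Tie1 was at 0.49 ± 0.20, with a genotype difference of -0.05 ± 0.14 in cortex and 0.44 ± 0.14 in hippocampus (adjusted p = 0.9998 for the difference between tissues). Pecam1 was at 0.26 ± 0.12 and Clec14a at 0.23 ± 0.11, and the dimmer Clec14a probe set, singled out after its values were seen, at 0.63 ± 0.15. Of the 34 differences 28 were above 0, where 53.1% of all genes were, with a median of 0.08.

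Between the tissues themselves, most endothelial and pericyte genes had a lower mean in hippocampus than in cortex. In APLP2-KO, 4 of 34 lay above 0 (47.6% of all genes) with a median of -0.13, and 6 were called lower (9.7% of all genes) and 1 higher (6.78% of all genes). In APPsα-DM, 6 of 34 lay above 0 (44.9% of all genes) with a median of -0.08, where 0 were called lower (7.34% of all genes) and 1 higher (6.59% of all genes). Every APLP2-KO hippocampus array lay below every APLP2-KO cortex array for 14 of 34 genes (20.3% of all genes), and for 4 of 34 in APPsα-DM (17.4% of all genes). The medians over all genes were -0.01 and -0.02. The difference between the genotypes in this tissue effect is the same test as above, in which none was called. These comparisons use the same arrays as the genotype comparisons, so the low APLP2-KO hippocampus values enter both. A lower hippocampal signal was not particular to the members. In APLP2-KO 1 of 10 neuronal genes (median -0.16), 0 of 7 oligodendrocyte genes (-0.13) and 3 of 11 microglia and macrophage genes (-0.14) lay above 0. Astrocyte genes did in 7 of 10 cases (0.08), smooth muscle genes in 6 of 9 (0.06) and leptomeningeal genes in 8 of 12 (0.18). Choroid plexus genes did in 12 of 13 cases (0.67) and red blood cell genes in 3 of 4 (0.02).

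Ramp2 was the only member called between tissues in both genotypes, and it was higher in hippocampus. It read 8.28, 8.10 and 8.45 in APLP2-KO cortex and 8.72, 8.85 and 9.16 in APLP2-KO hippocampus. In APPsα-DM it read 8.15, 8.24 and 8.30 in cortex and 8.95, 8.81 and 8.86 in hippocampus, so that no hippocampus array overlapped the cortex arrays in either genotype. Ramp2 rose by 0.63 ± 0.11 or 1.55-fold in APLP2-KO (adjusted p = 0.00239) and by 0.64 ± 0.11 or 1.56-fold in APPsα-DM (adjusted p = 0.00256). Over all alternatives the adjusted p of Ramp2 stayed between 0.000645 and 0.0176 in APLP2-KO and between 0.000689 and 0.0144 in APPsα-DM. Genes called higher in hippocampus in both genotypes were 5.06% of all genes.

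The 6 genes that fell in APLP2-KO hippocampus were Tie1, Cdh5, Esam, Flt1, Pecam1 and Nos3. Tie1 was at 6.01, 5.64 and 5.59 in APLP2-KO cortex against 5.08, 5.20 and 5.31 in hippocampus and fell by 0.55 on the log2 scale (SE 0.14, adjusted p = 0.0231). In APPsα-DM it differed by -0.06 ± 0.14 (adjusted p = 0.857). Esam, from 8.32, 8.14 and 8.15 to 7.93, 7.84 and 7.74, fell by 0.37 (SE 0.09, adjusted p = 0.0190) and differed by -0.24 ± 0.09 in APPsα-DM (adjusted p = 0.129). The cortex and hippocampus arrays of APLP2-KO did not overlap for either gene, and those of APPsα-DM did not overlap for Esam.

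Cdh5, from 6.01, 5.74 and 5.75 to 5.47, 5.58 and 5.27, fell by 0.39 (SE 0.12, adjusted p = 0.0452), and Flt1, from 9.01, 8.77 and 8.58 to 8.44, 8.37 and 8.49, by 0.35 (SE 0.10, adjusted p = 0.0321). Pecam1 fell by 0.31 (SE 0.09, adjusted p = 0.0333) and Nos3 by 0.28 (SE 0.08, adjusted p = 0.0408). In APPsα-DM these 4 differed by -0.23 to -0.05, none past the threshold, and of them only Flt1 had tissues without overlap. With the replicate number as a block, which assumes that equal numbers are the same mouse, Cdh5 and Pecam1 lost the call (adjusted p = 0.0531 and 0.0778). The pericyte gene Abcc9 gained one, at -0.31 (SE 0.08, adjusted p = 0.0488). There were then 6 calls in APLP2-KO, and 15.3% of all genes were called.

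The number of APLP2-KO calls changed with single arrays. Of all genes 16.5% were called in the fit of 12 arrays, and 12.1% to 14.2% with 1 APLP2-KO array left out. The members' calls, 7 with Ramp2, came to 1 without APLP2-KO cortex 1 (13.1% of all genes), 3 without APLP2-KO cortex 2 (12.5%) and 7 without APLP2-KO cortex 3 (13.8%). They came to 4 without APLP2-KO hippocampus 1 (14.2%), and to 2 each without APLP2-KO hippocampus 2 (12.1%) or 3 (12.6%). With only the 6 APLP2-KO arrays in the fit there were 4 (14.3%). The genes called changed as well. Clec14a was called without APLP2-KO hippocampus 1, and Abcb1a and Abcc9 without APLP2-KO cortex 3, where Cdh5 and Nos3 were not. The differences of the 6 genes kept their sign in all of these fits, for Tie1 from -0.63 to -0.42 and for Cdh5 from -0.46 to -0.31. Kdr, by comparison, differed by 0.00 ± 0.13 in APLP2-KO and by 0.09 ± 0.13 in APPsα-DM.

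**Figure D4:**
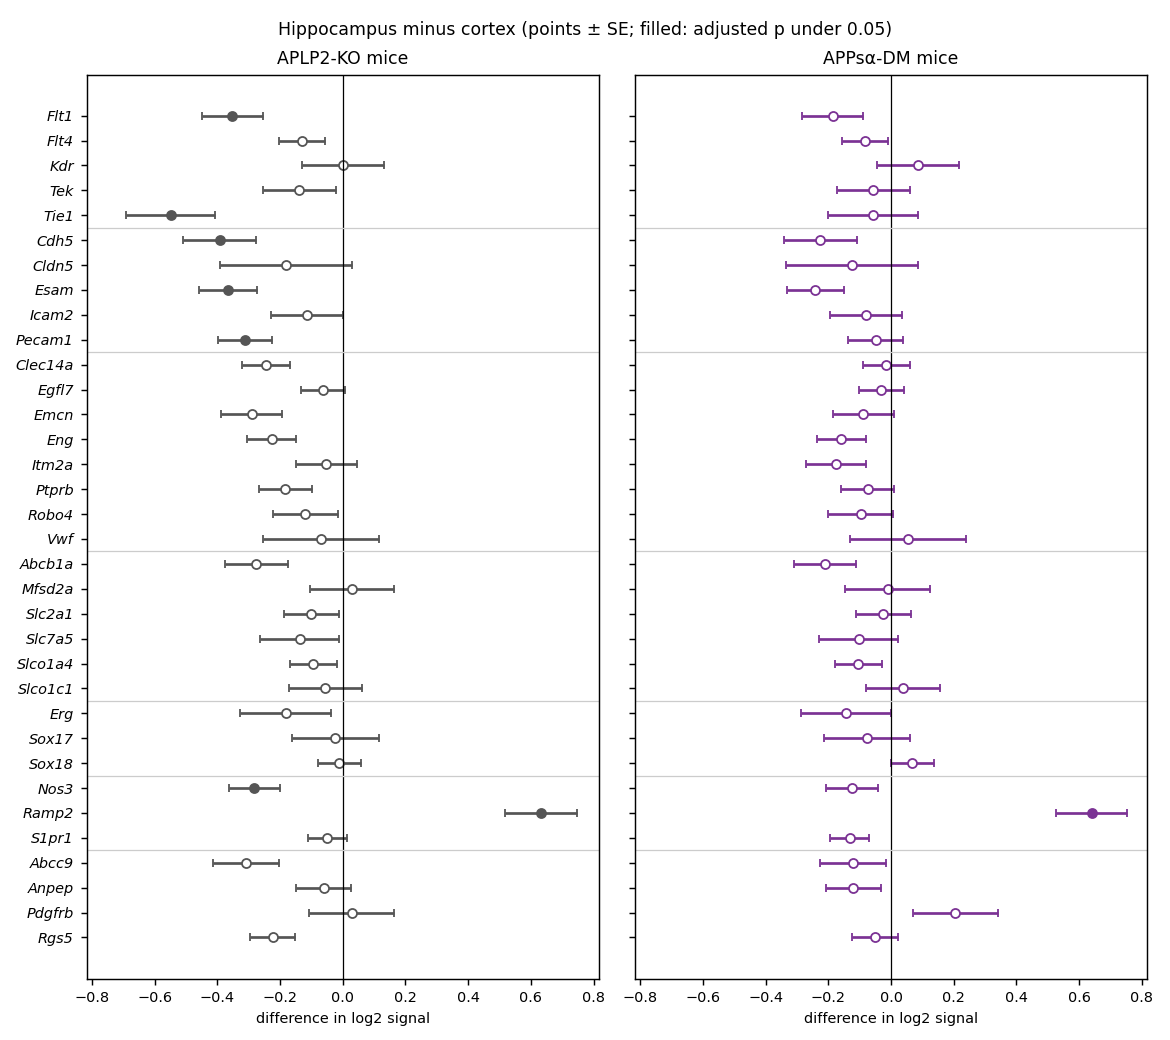
Difference in log2 RMA signal, hippocampus minus cortex (horizontal axes), for the 34 genes in APLP2-KO (left) and APPsα-DM (right), grouped by role. Points are limma estimates with SE bars, 3 arrays a group, and filled points passed the threshold. In both genotypes Ramp2 lies far right, at 0.63 and 0.64, and the 6 other filled points lie left of 0 in APLP2-KO.

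The other genes of the vascular pathways were not called in either genotype comparison, and their shares above 0 differed from list to list. In hippocampus, where 54.2% of all genes were above 0, 11 of 12 genes of the vascular basement membrane were above 0 with a median of 0.12. Lama5, a laminin chain, had the smallest p of these, at 0.20 ± 0.07. Of 17 further endothelial transcription factors 14 were above 0 (median 0.08). Elk3, an ETS family repressor, read 6.42, 6.45 and 6.50 in APLP2-KO and 6.74, 6.78 and 6.68 in APPsα-DM hippocampus, apart by 0.28 ± 0.07. Ets1 and Fli1, ETS factors of endothelium and blood cells, were at 0.33 ± 0.10 and 0.31 ± 0.12.

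Of 17 further barrier transporters and receptors 15 were above 0 in hippocampus (median 0.06). The glutamine transporter gene Slc38a5 had the highest difference of these in both tissues: it read 6.41, 6.54 and 6.49 against 6.90, 7.23 and 6.65 in hippocampus (0.45 ± 0.15) and 6.32, 5.89 and 6.28 against 6.62, 6.96 and 6.65 in cortex (0.59 ± 0.15). Its groups did not overlap in either tissue. Other junction genes were above 0 in 7 of 10 cases, genes of Wnt signalling at the barrier in 10 of 16 and genes of fenestrated, activated or large-vessel endothelium in 10 of 15. In the last group were Plvap, which marks fenestrated endothelium such as that of choroid plexus, at 0.16 ± 0.06, and Esm1 at 0.44 ± 0.18.

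Ligands, co-receptors and Notch genes were above 0 in 10 of 21 cases in hippocampus and in 9 of 21 in cortex. In cortex Vegfa, the growth factor that Kdr binds, read 8.22, 8.34 and 8.13 in APLP2-KO and 7.93, 7.91 and 7.79 in APPsα-DM, lower by -0.35 ± 0.09, while Kdr lay at 0.33. Dll4, a Notch ligand of growing vessels, read 5.84, 5.83 and 5.78 against 5.53, 5.55 and 5.54, lower by -0.28 ± 0.07. Neither pair of groups overlapped, and both had an adjusted p = 0.9996. In hippocampus Vegfa and Dll4 were at -0.15 ± 0.09 and -0.10 ± 0.07. Genes that respond to low oxygen were above 0 in 7 of 12 cases in cortex and 5 of 12 in hippocampus.

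Markers of other cells were followed over the same hippocampal comparison. Smooth muscle genes lay above 0 in 8 of 9 cases (median 0.18), leptomeningeal and fibroblast genes in 8 of 12 (0.20) and choroid plexus genes in 13 of 13 (1.10). Microglia and macrophage genes lay above 0 in 6 of 11 cases (0.03), astrocyte genes in 2 of 10 (-0.04), oligodendrocyte genes in 1 of 7 (-0.03), neuronal genes in 7 of 10 (0.02) and red blood cell genes in 1 of 4 (-0.06). Apart from the fits with covariates and without single arrays, the part of these tissues in the endothelial differences was not tested.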

How the data were processed

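Total RNA of 12 tissue samples, 1 array each, was measured on Affymetrix arrays, per the labels. The submitters' processing notes name RMA and affy, without versions. The authors deposited log2 signals per probe set, from 1.80 to 14.36, with array medians of 5.86 to 5.91. RMA draws arrays to 1 distribution, so a shift shared by most genes would not show.

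Of 45101 probe sets, 64 controls were left out and none for dim signal. Genes were named by GEO's annotation of the array, which gives 1 symbol for 34945 probe sets, several for 932 and none for 9160, and 34741 matched the reference (GRCm38.p6), which gave current symbols. R 4.3.3 and limma 3.58.1 estimated 4 group means from the 12 arrays in 1 fit (8 residual and 4.25 prior degrees of freedom), with eBayes and two-sided p. The mean effect used the average of both tissues per genotype and replicate number. Errors of differences are moderated SEs, with a median of 0.0938 within a tissue and 0.0662 for the mean effect, and 3 arrays a group limit the precision. The fit was tested on simulated data.

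Deviations from group means correlated at 0.109 to 0.155 between cortex and hippocampus arrays of the same number in APLP2-KO, and at 0.0193 to 0.0785 in APPsα-DM. Between arrays of different genotypes, which are different mice, the correlation reached 0.206 in hippocampus and 0.249 in cortex. These correlations therefore cannot show whether equal numbers are the same mouse, in either genotype. The members and lists were chosen with earlier results of these data known. Array values are given for the members with the 8 smallest p in cortex, in hippocampus or in the mean effect and for those called in both genotypes, and of other lists the genes that passed or up to 3 with the smallest p. Cldn5, Nos3, S1pr1, Rgs5 and the 6 genes called lower in APLP2-KO alone were given by array after their values were seen.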

Additional observations from a re-analysis of the deposited data

How the results depend on the processing

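No genotype comparison called any of the 34 genes under any of 16 alternatives each, nor did the difference between tissues under 21: arrays left out in turn, a fit of the 6 arrays compared, the replicate block, all probe sets averaged, dim probe sets left out, another scaling, a trended variance, choroid plexus or leptomeningeal covariates and 2 cortex arrays left out. The median hippocampal difference ran from 0.11 to 0.20 and the median cortex difference from -0.01 to 0.10. With the replicate block, 6 members were called in APLP2-KO tissue against 7, the count in APPsα-DM stayed at 1, and 0 were called between genotypes. Between genotypes this block joins different mice by number alone, and between tissues it assumes that equal numbers are the same mouse. Calls in APLP2-KO tissue were 4 with only the 6 arrays compared, 11 with the leptomeningeal covariate, which was added after seeing the data, and 1 to 7 with an array left out, where all genes called were 14.3%, 16.1% and 12.1% to 14.2%. Without the 2 cortex arrays highest in Ttr, 16 genes lay above 0 in the cortex comparison, 12 in the APPsα-DM tissue comparison, the median difference between tissues was 0.15, and the arrays did not overlap for 9 of 34 genes in cortex (36.3% of all genes) and 10 in APPsα-DM tissue (42.2%). With all probe sets averaged, the last count was 8 (32.3%). The cause of these shifts was not tested, except that fewer arrays overlap less often. With an array left out, genes without overlap numbered 4 to 15 in cortex (4 with all arrays), 16 to 23 in hippocampus (14), 11 to 20 for the mean (11) and 8 to 14 for APPsα-DM tissue (5). Of all genes, 16.8% to 21.8%, 16.4% to 23.2%, 16.3% to 24.0% and 38.6% to 43.7% then did not overlap, against 9.82%, 10.5%, 10.3% and 32.7% with all arrays. Genes above 0 numbered 2 to 5 for APLP2-KO tissue (4) and 5 to 12 for APPsα-DM tissue (6). In APPsα-DM the tissue difference of Pecam1 turned to 0.013 without APPsα-DM cortex 2 or without the 2 cortex arrays, from -0.11 to 0.013 over arrays left out. That of Tie1 turned to 0.12 without APPsα-DM hippocampus 3, from -0.16 to 0.12, and neither was called.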

Other observations

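Some genes of the vascular pathways outside the 34 were called between the tissues in both genotypes. In the list of ligands, co-receptors and Notch genes, 8 of 21 were called in APLP2-KO and 7 of 21 in APPsα-DM, and of the basement membrane genes 2 of 12 in each. Over all genes 16.5% were called in APLP2-KO and 13.9% in APPsα-DM, and the basement membrane count was near these shares. Nrp1 and Nrp2, co-receptors of vascular growth factor that neurons also use as semaphorin receptors, were higher in hippocampus by 1.77 and 1.66 in APLP2-KO and by 1.61 and 1.52 in APPsα-DM. The placental growth factor gene Pgf was higher by 0.49 and 0.59, and Angpt1, which activates Tek, by 0.74 and 0.50. Apln, a peptide ligand made by endothelial tip cells and other cells, was lower by -0.65 and -0.60, and Acvrl1, a receptor of bone morphogenetic proteins on endothelium, by -0.65 and -0.67. The basement membrane genes Lamb1 and Sparc were higher by 1.06 and 0.59 in APLP2-KO and by 0.89 and 0.54 in APPsα-DM. Each named gene passed limma's threshold in both genotypes, and several are known in neurons or glia as well.

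In cortex the shear-responsive endothelial factor gene Klf2 read 7.85, 7.58 and 7.50 in APLP2-KO and 7.27, 6.98 and 7.39 in APPsα-DM, a difference of -0.43 ± 0.13 without overlap that limma did not call (adjusted p = 0.9996). In hippocampus Klf2 was at -0.10 ± 0.13.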
